A study of Mus musculus with 6 samples.

Results

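The genes described here encode 10 proteins that keep maternal mRNAs stable and untranslated in the mouse egg, or that bind the mRNA cap: Zar1, Zar1l, Ybx2, Ddx6, Lsm14a, Lsm14b, Eif4enif1, Cpeb1, Eif4e and Eif4e1b. They were taken by symbol, 1 row each, from a table of 25731 genes, and all 10 passed the filter on low values. RNA was measured in 6 pools of 13 wild-type zygotes of B6C3F1 x CD1 background, collected 10 h after injection at the pronuclear stage. All zygotes had been injected at 15 h post-hCG with a dextran tracer (oregon green, 0.02 mg/mL) and with mCherry-Trim21 mRNA at 0.2 mg/mL. The ZP3 Trim-away group also received anti-ZP3 antibody (1 mg/mL; 3 pools), and the control group received the antibody buffer in its place (3 pools). TRIM21 is a ubiquitin ligase that binds antibodies and directs them, with the protein they hold, to the proteasome, so the comparison asks how transcript levels differ shortly after ZP3, a protein of the zona pellucida, is targeted. No source says that the pools came from separate collections. The spread behind each p-value is that of these pools and may be technical.

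A growing oocyte makes far more mRNA than it translates, and it packs much of the surplus into repressed ribonucleoprotein particles. Y-box proteins and the ZAR proteins bind and stabilize these mRNAs, CPEB1 recognizes U-rich elements near their 3′ ends, and a complex of the helicase DDX6, LSM14 proteins and the eIF4E transporter (4E-T, the product of Eif4enif1) holds the cap-binding protein in a form that does not recruit ribosomes. Most transcription is silent from late oocyte growth until the genome of the zygote is activated, and maternal mRNAs are degraded over the same period. The level of such a transcript in a zygote is thus largely what remains of a maternal store.

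Library totals lay between 15291000 and 20005724 reads. The deposited columns of control replicates 2 and 3 were means with control replicate 1, and all values given here are of the libraries after separation. Of the 24959 genes with a known exon length, those above 0 numbered 13025 to 14269 in control pools and 18402 to 19851 after Trim-away, and tested genes had a median log2 SD of 0.436 between controls and 0.202 between ZP3 Trim-away libraries. Reads of Trim21, whose sequence the injected mRNA carries, made up 14.6 to 18.1% of the control totals and 9.12 to 10.99% of the ZP3 Trim-away totals. All 10 oocyte markers were present, with summed levels of 6449 to 7876 RPKM in control pools, against 8611 to 10178 RPKM after Trim-away. The 9 markers of cumulus and granulosa cells in the table summed to 8.44 to 20.1 and 15.7 to 27.1 RPKM, the 3 sperm markers to 2.39 to 7.77 and 1.58 to 2.09 RPKM, and the 4 oviduct markers to 1.88 to 6.20 and 5.14 to 12.6 RPKM. Among the cumulus markers Fshr was at 0 in all but 1 library, whereas Tnfaip6 was at 0, 0 and 1.68 RPKM in control pools, against 3.57, 6.95 and 6.92 RPKM after Trim-away, without overlap (limma adjusted p = 0.0601, log2 fold change 2.25). Every ZP3 Trim-away library was above every control library in 20.3% of all tested genes. The sum over all 9 cumulus markers did overlap between groups. It was 20.1 RPKM in control replicate 1, where Tnfaip6 was at 0, against 16.7, 27.1 and 15.7 RPKM after Trim-away. Markers of blood were not analysed here. The part of these differences in the results on the 10 genes was not tested.

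The libraries were primed with oligo-dT on poly(A) tails, and the elements that set tail length lie just upstream of the tail. The annotated 3′ end of each mRNA was therefore searched for the cytoplasmic polyadenylation element bound by CPEB1 (TTTTAT or TTTTAAT) and for the poly(A) signal (AATAAA or ATTAAA), on the mRNA strand only, in the last 100 bases. Below, 30 bases around the motifs are shown for the 6 mRNAs on which the comparisons turn, from GENCODE release M21 on GRCm38, each read from 5′ to 3′ on the strand of the mRNA, with these motifs in capitals. The pairs Zar1l with Zar1 and Eif4e1b with Eif4e are shown to compare paralogs, and Ybx2 and Lsm14a because theirs were the windows that held a cytoplasmic polyadenylation element.
Zar1l, chr5:150507056-150507085, minus strand: tcttcagcttaaAATAAAccttgtgacagt
Zar1, chr5:72577117-72577146, minus strand: ataaagcctgtgAATAAAaggtattgcaaa
Eif4e1b, chr13:54788427-54788456, plus strand: tttctgtatctaAATAAAcacttctggaac
Eif4e, chr3:138559664-138559693, plus strand: cagaggattggaATTAAAtgcgttcactac
Ybx2, chr11:69941532-69941561, plus strand: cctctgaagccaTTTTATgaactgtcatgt
Lsm14a, chr7:34344668-34344697, minus strand: cactttgtgtTTTTAATAAAggccatggaa

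Of the 10 mRNAs, 9 had a poly(A) signal in this window, Ybx2 being the exception, and 2 had a cytoplasmic polyadenylation element. Among 8123 tested genes with an annotated mRNA end, 81.4% had the signal and 20.4% the element. Lsm14a had 3 poly(A) signals in this window. Its element overlaps 1 of them in the run TTTTAATAAA and ends inside that signal. The signal nearest the 3′ end starts 24 bases from it and is not the one marked above. Zar1l is unusual in another way: its annotated 3′ untranslated region is 14 bases long, and its stop codon, TAA, lies inside its poly(A) signal. Those of the other 9 genes are 146 to 4250 bases long. The Zar1l mRNA, at 895 bases, is also the shortest of the 10, the others being 1429 (Zar1) to 6029 bases (Ddx6). A motif match is a description of the annotated sequence and does not show that the site is used.

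The cap-binding pair stood at the top of the order of levels. RPKM is scaled to exon length, so that levels can be compared between genes. Eif4e1b, which encodes an oocyte form of the cap-binding protein, had the highest control mean of the 10, 310 ± 32.8 RPKM (mean ± SD, n = 3), at rank 93 of the 9965 genes tested. Eif4e, the general cap-binding protein, followed with 76.0 ± 14.1 RPKM, Eif4enif1 with 70.7 ± 6.55 RPKM and Zar1l with 57.8 ± 13.5 RPKM. The control values of Eif4e overlapped those of Eif4enif1, and those of Eif4enif1 overlapped those of Zar1l. Lsm14a (43.5 ± 4.32 RPKM) and Lsm14b (26.7 ± 9.40 RPKM) came next without overlap, then Ybx2 (14.4 ± 4.53 RPKM) and Cpeb1 (12.9 ± 5.39 RPKM), which overlapped each other. Zar1 (2.71 ± 0.902 RPKM) and Ddx6 (2.06 ± 1.53 RPKM) were the lowest and also overlapped, at ranks 6700 and 7498. The order in ZP3 Trim-away was the same except that Zar1l stood second, above Eif4e and Eif4enif1.

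**Figure D1:**
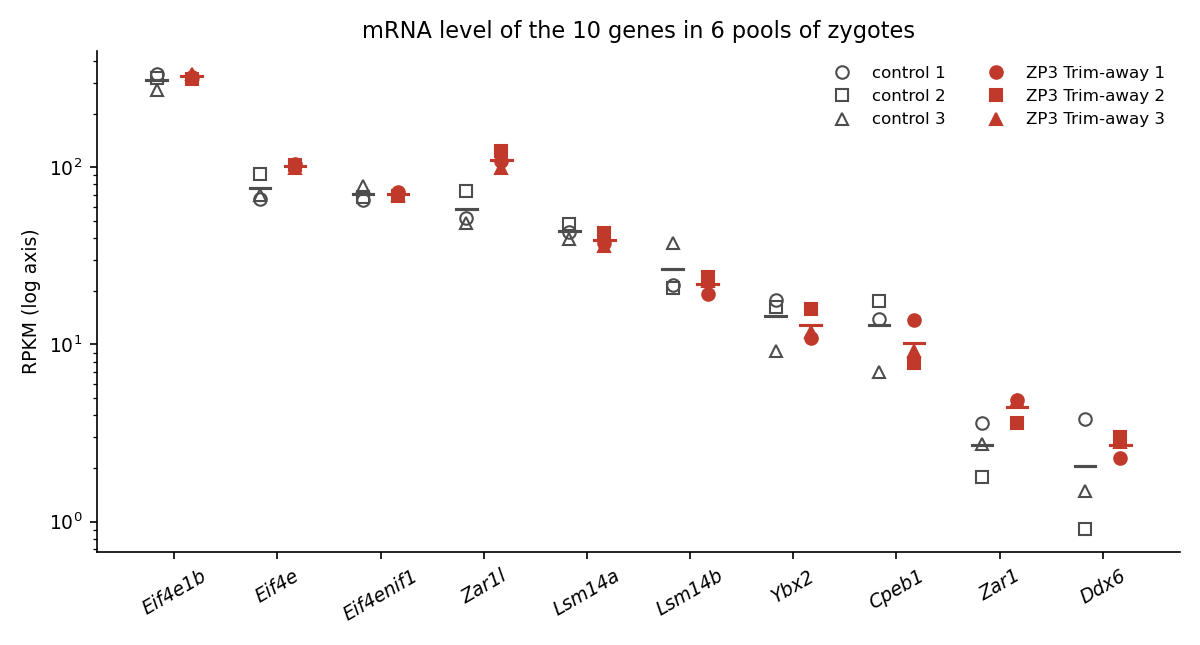
RPKM of the 10 genes (log axis) in 3 control libraries (open grey symbols) and 3 ZP3 Trim-away libraries (filled red symbols), ordered by control mean, with a bar for each group mean. Eif4e1b stands alone near 310 RPKM in the controls, and Zar1l and Eif4e are the abundant genes whose filled symbols all lie above their open ones.

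The order depends in part on the length used. RPKM divides by all annotated exons of a gene, and for Zar1 these add up to 3465 bases against 1429 bases of the main mRNA, a ratio of 2.42. The ratio was 2.08 for Lsm14a and 1.73 for Eif4enif1, and between 1.00 and 1.35 for the other 7 genes. Scaled to the main mRNA instead, the control means became 122 RPKM for Eif4enif1, 91.4 RPKM for Eif4e and 90.7 RPKM for Lsm14a, which moved Eif4enif1 above Eif4e and Lsm14a above Zar1l, whose control mean remained 57.8 RPKM. Cpeb1 (17.3 RPKM) likewise moved above Ybx2 (16.2 RPKM). Zar1 rose to 6.58 RPKM and kept its place as ninth. This scaling was chosen after the values had been seen, and the comparisons between groups were made without it.

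None of the 10 genes passed the test between ZP3 Trim-away and control (limma on log2(RPKM + 1), Benjamini-Hochberg adjustment over 9965 genes, threshold 0.05). Over all tested genes, 63 passed, or 0.632%, of which 59 were higher and 4 lower in ZP3 Trim-away. Without adjustment, 2 of the 10 had p under 0.05, Zar1l and Eif4e, against 1942 of the 9965 genes. The signs were split, with 5 positive and 5 negative log2 fold changes and a median of 0.04. The median over all tested genes was 0.22, and 67.3% of them were positive. Of the 10 genes, 4 lay above that median and 6 below it. In 3 of the 10 every ZP3 Trim-away library was above every control library (Zar1l, Zar1 and Eif4e), which was true of 20.3% of all tested genes. In none of the 10 was every ZP3 Trim-away library below every control library, against 6.34% of all tested genes. RPKM is a share of a library's reads. A loss of zygotes and a lower amount of RNA per zygote cannot be told apart here, nor can the amount of an mRNA and the length of the poly(A) tail by which it was primed.

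**Figure D2:**
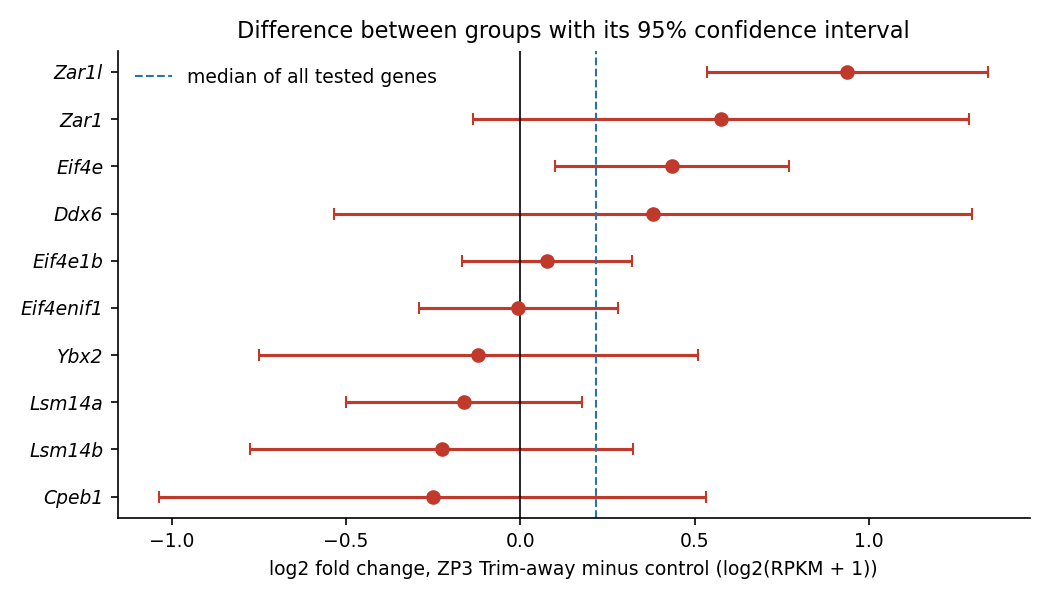
Log2 fold change of each gene, ZP3 Trim-away minus control on the log2(RPKM + 1) scale, with its 95% confidence interval from limma, the zero line and the median of all tested genes (dashed). The intervals of Zar1l (0.53 to 1.34) and Eif4e (0.10 to 0.77) lie above 0 before adjustment for the number of genes tested.

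Zar1 and Zar1l encode paralogous RNA-binding proteins of the oocyte, and mouse eggs that lack both lose part of their maternal mRNA. Zar1l (ENSMUSG00000056586) had the largest log2 fold change of the 10. Its level was 51.6, 73.3 and 48.5 RPKM in control replicates 1, 2 and 3 and 108, 124 and 98.9 RPKM in the ZP3 Trim-away libraries. All ZP3 Trim-away values exceeded all control values, and the lowest of them was 25.5 RPKM above the highest control. The group means were 57.8 ± 13.5 and 110 ± 12.5 RPKM, a log2 fold change of 0.94 ± 0.18 (SE), and it missed the threshold with a limma adjusted p of 0.0519. Relative to the median of all tested genes the log2 fold change was 0.72.

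The call for Zar1l turned on the processing. It passed with the deposited control columns unseparated (limma adjusted p = 0.000772), with a minimum mean of 10 RPKM in place of 1 (0.0249) and without control replicate 2, its highest control (0.0322). With the trend of fold change with exon length removed, the log2 fold change was 0.52 and the limma adjusted p 0.193. The short exon length of Zar1l places it where fold changes in these libraries ran high. The median log2 fold change was 0.41 over the 1262 tested genes with under 1000 bases of exon and 0.01 over the 2569 genes with 6000 bases or more. Of the genes under 1000 bases, 19.7% had a log2 fold change at or above that of Zar1l. The part of length in the difference of Zar1l was not tested beyond these values.

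Zar1 (ENSMUSG00000063935) stood at 3.59, 1.79 and 2.76 RPKM in control pools, against 4.88, 3.62 and 4.87 RPKM after Trim-away. The groups did not overlap, but only by a margin smaller than counting error, since the highest control value rested on 231 reads (exact Poisson 95% interval 3.14 to 4.08 RPKM) and the lowest ZP3 Trim-away value on 197 reads (3.13 to 4.16 RPKM). Such intervals cover counting error only, because amplified reads are not independent molecules. The log2 fold change was 0.58 ± 0.31 (limma adjusted p = 0.353), with a 95% confidence interval of -0.14 to 1.29. Zar1 was also the least distinct of the 10 in sequence, and its level is uncertain for that reason. Of its 1358 stretches of 72 bases, the read length, 16.8% occur exactly in transcripts of Gm15847 or Gm42668, which were not analysed here, and htseq-count does not count reads with more than one alignment.

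Zar1l was the more abundant paralog in every library. The ratio of Zar1l to Zar1 was 14.4, 41.0 and 17.6 in control pools and 22.2, 34.2 and 20.3 after Trim-away. Its size depends on the length used. Scaled to the main mRNA, the control means were 57.8 RPKM for Zar1l and 6.58 RPKM for Zar1. Control replicate 2 had the highest ratio, because it combined the highest control value of Zar1l with the lowest of Zar1, and the groups overlapped. On the log2(RPKM + 1) scale the mean ratio was 3.99 ± 0.65 (SD, n = 3) in control pools and 4.35 ± 0.35 after Trim-away, a difference of 0.36 (two-sided exact permutation p = 0.4, adjusted over 3 ratios 0.6). The smallest p that 3 against 3 libraries allows is 0.1. The difference was 0.13 without control replicate 1, 0.74 without control replicate 2, 0.23 without control replicate 3 and 0.16 without ZP3 Trim-away replicate 2.

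Eif4e and Eif4e1b encode cap-binding proteins. EIF4E recruits the initiation complex to the cap, whereas EIF4E1B is made in oocytes, and in Xenopus it was found with 4E-T and CPEB in a complex that represses translation. Eif4e (ENSMUSG00000028156) stood at 66.4, 92.1 and 69.3 RPKM in control pools, against 104, 103 and 99.2 RPKM after Trim-away. The groups did not overlap, and the ZP3 Trim-away libraries lay closer to each other (102 ± 2.39 RPKM) than the controls did (76.0 ± 14.1 RPKM). The log2 fold change was 0.43 ± 0.15 and did not pass (limma adjusted p = 0.160). It passed with the unseparated columns (0.52, limma adjusted p = 0.00345) and without control replicate 2 (0.58, limma adjusted p = 0.0494), and it fell to 0.25 under median ratio scaling. Eif4e shares 4.15% of its stretches of 72 bases with Gm7327, a processed pseudogene, which stood at 11.9 to 14.6 RPKM in control pools, against 17.3 to 29.6 RPKM after Trim-away.

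Eif4e1b (ENSMUSG00000074895) stood at 337, 320 and 274 RPKM in control pools, against 324, 316 and 338 RPKM after Trim-away. The groups overlapped, control replicate 3 being the lowest of the 6. With 10730 to 14454 reads per library it was also the most deeply counted of the 10. Its log2 fold change was 0.08 ± 0.11 (limma adjusted p = 0.734), with a 95% confidence interval of -0.17 to 0.32, or 0.89 to 1.25-fold. The sign depended on the scaling, the log2 fold change being -0.11 under median ratio scaling, -0.13 under quantile normalization and -0.25 with the length trend removed. Eif4e1b shares 1.53% of its stretches of 72 bases with Gm5705. That gene stood at 26.1 to 40.1 RPKM in control pools, against 21.5 to 29.8 RPKM after Trim-away.

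The ratio of Eif4e1b to Eif4e within a library was 5.08, 3.48 and 3.95 in control pools and 3.13, 3.08 and 3.41 after Trim-away. Every ZP3 Trim-away ratio was below every control ratio, the nearest values being 3.48 in control replicate 2 and 3.41 in ZP3 Trim-away replicate 3. The mean log2 ratio was 2.03 ± 0.28 (SD, n = 3) in control pools and 1.67 ± 0.08 after Trim-away, a difference of -0.36 (two-sided exact permutation p = 0.1, the lowest possible here, adjusted over 3 ratios 0.3). A ratio within a library is free of the library's scaling, and it was lower in all 3 ZP3 Trim-away libraries without passing the threshold, which no ratio can pass at this size. Without control replicate 1, which had the highest ratio, the difference was -0.21.

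**Figure D3:**
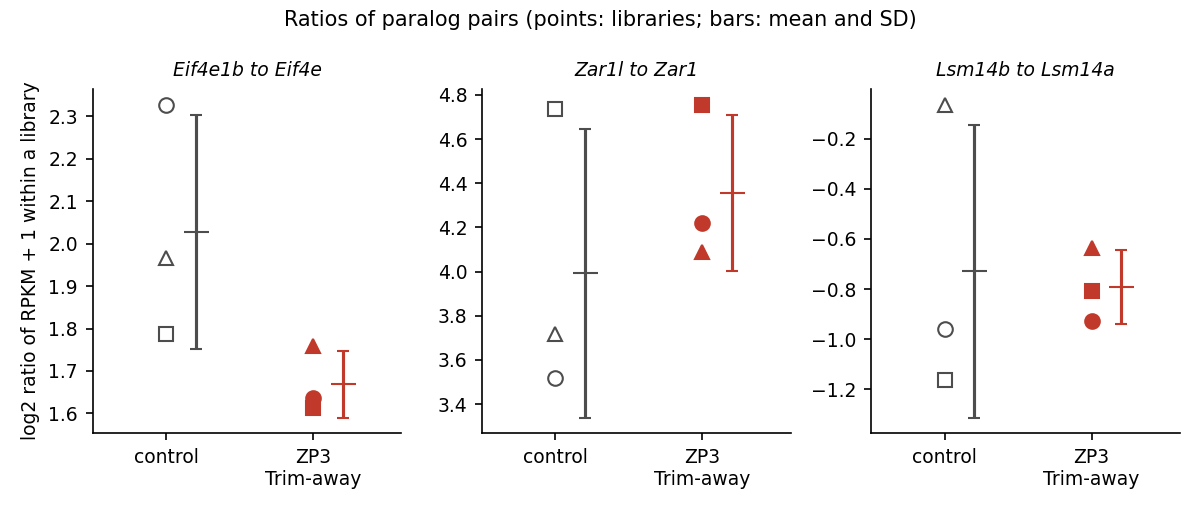
Log2 ratio of RPKM + 1 between the members of 3 paralog pairs in each library (open grey, control; filled red, ZP3 Trim-away), with the mean and SD of each group beside the points. The vertical axes differ. The Eif4e1b to Eif4e ratio is separated between groups, 1.79 to 2.33 in control pools and 1.61 to 1.76 after Trim-away, and the other 2 ratios overlap.

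Eif4enif1, Ddx6, Lsm14a and Lsm14b encode the partners that hold eIF4E in repressed particles. Eif4enif1 (ENSMUSG00000020454), the eIF4E transporter, had the smallest spread of the 10 between controls. It stood at 65.7, 68.3 and 78.1 RPKM in control pools, against 72.6, 68.6 and 69.5 RPKM after Trim-away. All ZP3 Trim-away values lay inside the control range. The log2 fold change was -0.01 ± 0.12 (limma adjusted p = 0.987), and the 95% confidence interval ran from -0.29 to 0.28, or 0.818 to 1.21-fold. The sign turned under 4 of 15 alternatives.

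Ddx6 (ENSMUSG00000032097), the helicase of the complex, was the lowest of the 10 and the most variable between controls. It stood at 3.79, 0.91 and 1.49 RPKM in control pools, against 2.28, 3.02 and 2.81 RPKM after Trim-away, all of which lay within the control range. The controls spanned a ratio of 4.18 between highest and lowest and the ZP3 Trim-away libraries a ratio of 1.33. This spread exceeded counting error, since the 566 reads of control replicate 1 give an exact Poisson 95% interval of 3.49 to 4.12 RPKM and the 146 reads of control replicate 2 one of 0.767 to 1.07 RPKM. The log2 fold change was 0.38 ± 0.40 (limma adjusted p = 0.643), with an interval of -0.53 to 1.29. On that scale the interval spans 0.691 to 2.45-fold and is the widest of the 10. The log2 fold change was 0.76 without control replicate 1, 0.095 without control replicate 2 and -0.074 with the columns as deposited. Ddx6 shares 3.24% of its stretches of 72 bases with the pseudogene Gm13410, which was below 1 RPKM in all 6 libraries.

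LSM14A and LSM14B are paralogous scaffold proteins that bind DDX6 and 4E-T, and LSM14B is the form known for its role in oocyte mRNA storage in the mouse. Lsm14a (ENSMUSG00000066568) stood at 43.3, 47.9 and 39.3 RPKM in control pools, against 37.5, 42.8 and 35.9 RPKM after Trim-away. The groups overlapped, with a log2 fold change of -0.16 ± 0.15 (limma adjusted p = 0.582). Its exons overlap those of 2310043P16Rik and Gm12764 on the opposite strand, and the library kit keeps no strand, but 2310043P16Rik was at most 0.169 RPKM and Gm12764 at most 0.839 RPKM. Lsm14b (ENSMUSG00000039108) stood at 21.8, 20.8 and 37.6 RPKM in control pools, against 19.2, 24.0 and 22.7 RPKM after Trim-away. Control replicate 3 stood apart from the other 5 libraries, and without it the log2 fold change went from -0.23 to 0.037. With all libraries the limma adjusted p was 0.647.

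Lsm14b was present at 0.503, 0.435 and 0.956 times the level of Lsm14a in control pools and at 0.512, 0.561 and 0.633 times after Trim-away. These ratios depend on the length used. Scaled to the main mRNA, the control means were 30.5 RPKM for Lsm14b and 90.7 RPKM for Lsm14a. Control replicate 3 was again the one that stood apart. The mean log2 ratio was -0.73 ± 0.59 (SD, n = 3) and -0.79 ± 0.15, a difference of -0.06 (two-sided exact permutation p = 1, adjusted 1). Without control replicate 3 the difference was 0.27.

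Ybx2 and Cpeb1 encode the 2 other RNA-binding proteins. Ybx2 (ENSMUSG00000018554) encodes the germ-cell Y-box protein also called MSY2, an abundant RNA-binding protein of the mouse oocyte. Its level was 17.7, 16.2 and 9.22 RPKM in control pools, against 10.9, 15.9 and 11.7 RPKM after Trim-away, with overlap and a log2 fold change of -0.12 ± 0.28 (limma adjusted p = 0.845). Cpeb1 (ENSMUSG00000025586), whose protein binds the cytoplasmic polyadenylation element, stood at 13.9, 17.7 and 7.03 RPKM in control pools, against 13.8, 7.84 and 9.14 RPKM after Trim-away. The groups overlapped and its log2 fold change was -0.25 ± 0.34 (limma adjusted p = 0.726). Control replicate 3 had the lowest value of both genes among the 6 libraries. The 95% confidence intervals were wide, -0.75 to 0.51 for Ybx2 and -1.04 to 0.53 for Cpeb1, and the sign turned without control replicate 1 for Ybx2 (0.045) and without control replicate 2 for Cpeb1 (0.0048).

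For each of the 10 genes the SD on the log2 scale was larger in the controls than in ZP3 Trim-away, as it was in 81.6% of all tested genes. The control SD on that scale ran from 0.13 (Eif4enif1) to 0.68 (Ddx6), and that of ZP3 Trim-away from 0.03 (Eif4e) to 0.38 (Cpeb1). No control library was the extreme one throughout. Control replicate 2 was the highest control for Zar1l, Lsm14a, Cpeb1 and Eif4e and the lowest for Zar1, Ddx6 and Lsm14b.

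**Figure D4:**
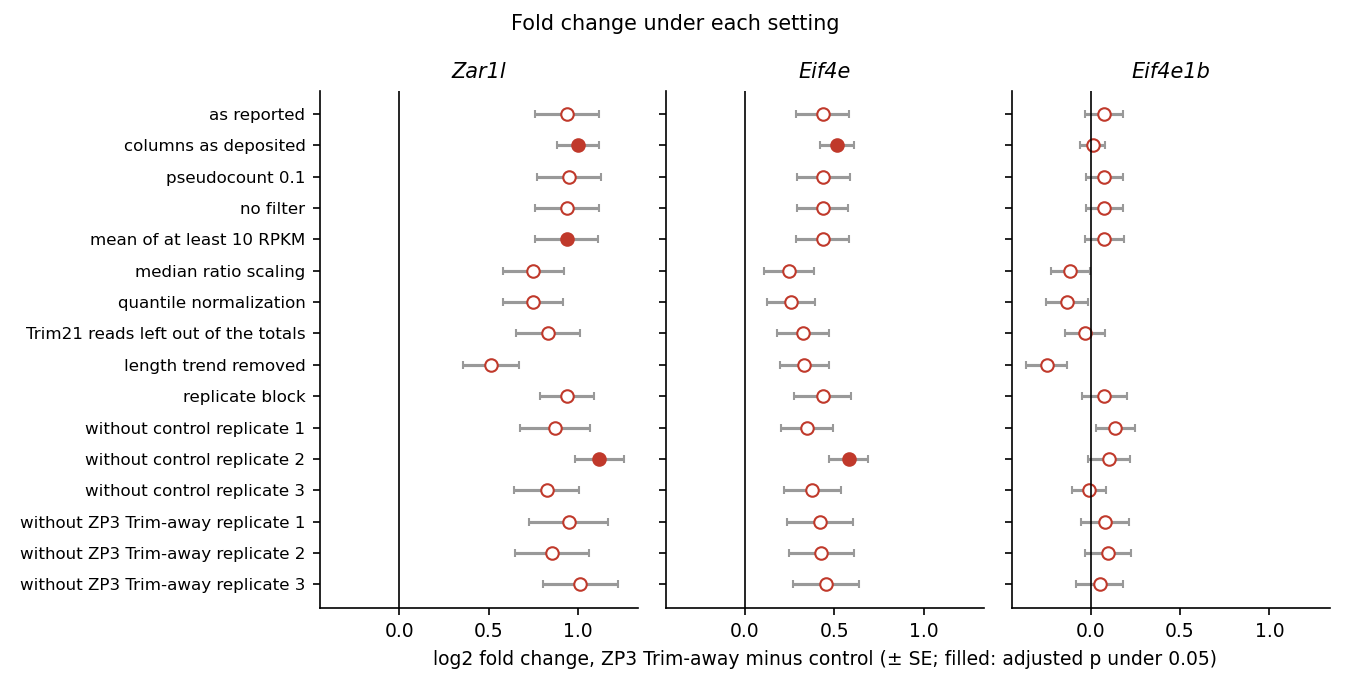
Log2 fold change (± SE) of Zar1l, Eif4e and Eif4e1b, ZP3 Trim-away minus control, as reported and under 15 alternatives, where filled points had a limma adjusted p under 0.05. Zar1l ranged from 0.52 to 1.12 and Eif4e from 0.25 to 0.58, while Eif4e1b lay between -0.25 and 0.14 on both sides of 0.

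The genes around these 10 were read as 5 lists. No gene of any list passed the test in either direction (limma adjusted p under 0.05), which 0.632% of all tested genes did. Without adjustment, 3, 2, 2, 3 and 1 genes of the lists, in the order given here, had p under 0.05, against 1942 of the 9965 tested. In the same order, 2, 3, 3, 3 and 1 genes had every ZP3 Trim-away library above every control library, against 20.3% of all tested genes. Those with every ZP3 Trim-away library below every control library were 2, 2, 3, 0 and 1, against 6.34% of all tested genes. Of 25 further RNA-binding proteins of stored mRNPs, 21 were tested, 9 with a positive and 12 with a negative log2 fold change (median -0.10). The most abundant was Dazl, a germ-cell RNA-binding protein (191 ± 16.8 and 220 ± 22.8 RPKM in control and ZP3 Trim-away, log2 fold change 0.20). The largest positive log2 fold change was that of Patl2, an oocyte mRNA repressor. It stood at 7.13, 3.74 and 12.2 RPKM in control pools, against 9.63, 11.2 and 12.5 RPKM after Trim-away, with overlap (0.60 ± 0.36, limma adjusted p = 0.399).

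Of 22 cap-binding genes and regulators of the eIF4F complex, 18 were tested, 8 positive and 10 negative (median -0.06). The most abundant was Eif4a1, the helicase of eIF4F (164 ± 15.3 and 192 ± 4.35 RPKM, log2 fold change 0.23). Mknk1, a kinase that phosphorylates eIF4E, had the largest positive log2 fold change. It stood at 5.87, 6.85 and 4.49 RPKM in control pools, against 10.4, 9.32 and 9.69 RPKM after Trim-away, without overlap (0.70 ± 0.24, limma adjusted p = 0.162). The largest negative one was Eif4ebp2, which encodes a protein that sequesters eIF4E (-0.64 ± 0.64, limma adjusted p = 0.622). Its controls were 0.168, 4.50 and 6.41 RPKM and its ZP3 Trim-away libraries 1.18, 1.44 and 1.37 RPKM, so that control replicate 1 was below all ZP3 Trim-away libraries and the other controls above them.

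Of 20 genes of the CPEB and polyadenylation machinery, 15 were tested, 6 positive and 9 negative (median -0.05). Aurka, a kinase that phosphorylates CPEB1 in Xenopus oocytes, was the most abundant (135 ± 43.0 and 118 ± 4.38 RPKM, log2 fold change -0.14). The extremes were both enzymes of the poly(A) tail. Parn, a deadenylase, stood at 12.5, 22.3 and 14.1 RPKM in control pools, against 25.6, 29.3 and 25.5 RPKM after Trim-away (0.72 ± 0.23, limma adjusted p = 0.142). Tent4a, a non-canonical poly(A) polymerase, stood at 22.8, 18.2 and 21.4 RPKM in control pools, against 11.5, 11.8 and 13.5 RPKM after Trim-away (-0.71 ± 0.18, limma adjusted p = 0.0887). Neither overlapped between groups, and neither passed.

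Of 15 decapping and processing-body factors, 12 were tested, 11 positive and 1 negative, with a median of 0.21 beside 0.22 over all tested genes. The negative one, Dcp1a, a decapping cofactor and itself an mRNA that is stored in mouse oocytes, was also the most abundant (125 ± 23.3 and 101 ± 14.3 RPKM, log2 fold change -0.30). The largest positive value was that of Pnrc2, which links decapping to nonsense-mediated decay. It stood at 1.27, 0 and 2.60 RPKM in control pools, against 4.39, 5.23 and 4.40 RPKM after Trim-away (1.49 ± 0.47, limma adjusted p = 0.139), a low gene with a control at 0. The fifth list held 18 mRNAs known to be stored in oocytes, all tested, 13 positive and 5 negative (median 0.07). Spin1, the most abundant, stood at 4125 ± 164 and 4245 ± 117 RPKM (log2 fold change 0.04). Mos, the kinase that holds the egg in meiotic arrest, had the largest positive value of that list (5.03 ± 1.77 and 7.19 ± 1.10 RPKM, 0.48), and Cnot6l, a deadenylase of the CCR4-NOT complex, the largest negative one (29.3 ± 8.66 and 20.1 ± 1.88 RPKM, -0.48). Dazl, Dcp1a and Dcp2 are counted in 2 lists each.

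**Figure D5:**
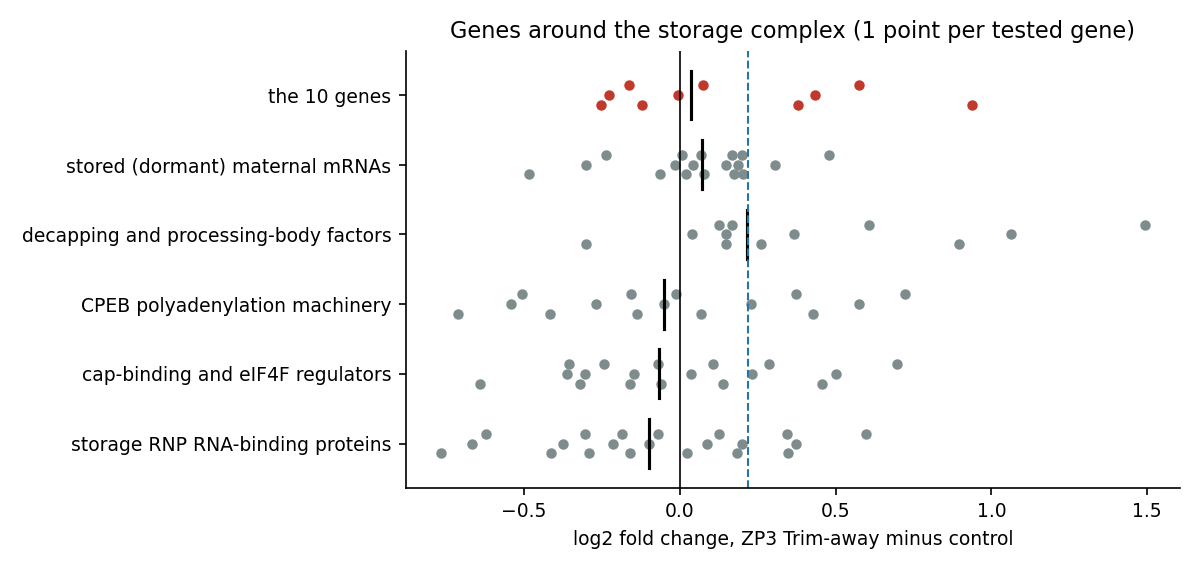
Log2 fold change of every tested gene of the 5 lists (grey) and of the 10 genes (red), ZP3 Trim-away minus control, with the median of each list (black bar) and the median of all tested genes (dashed, 0.22). The medians of the lists lie between -0.10 and 0.21 and that of the 10 genes at 0.04.

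Zp3, whose protein the antibody targets, stood at 31.3, 55.6 and 39.9 RPKM in control pools, against 46.5, 58.9 and 52.7 RPKM after Trim-away (limma adjusted p = 0.411). The method removes protein, and its success cannot be read from mRNA. Trim21 fell by 0.73 on the log2 scale (limma adjusted p = 0.0274). With its reads left out of the library totals, no member of the group of 10 passed, and the log2 fold changes of Zar1l, Eif4e and Eif4e1b were 0.83, 0.33 and -0.032.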

How the data were processed

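The authors deposited 1 table of RPKM values (reads divided by exon length and by the library's total), made with FastQC 0.11.9, Trimmomatic, HISAT2 and SAMtools per the submitters' processing notes, and with htseq-count per the paper. Versions of the others are not given in the sources. The labels name GRCm39 and the paper GRCm38, and coordinates and sequences here are those of GENCODE M21 on GRCm38. The libraries were made with the NEBNext Single Cell/Low Input kit, which keeps no strand. In the deposited table, control replicates 2 and 3 were never below 0.5 times control replicate 1 in its 13202 genes above 0, and exactly 0.5 times it in 2059 and 2090 genes. Each was therefore taken as 2 times the column minus control replicate 1, after which 95.6 and 95.7% of their values lay within 0.01 of a whole read, against 9.60 and 9.02% as deposited with the same totals. Totals were 18567367, 20005724 and 17378251 reads (controls) and 15746633, 15725980 and 15291000 reads (ZP3 Trim-away). At 1 kb of exon, 3 reads, the limit that a count of 0 allows, correspond to 0.15 to 0.196 RPKM. No per-sample columns were left unassigned.

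The test between groups was limma 3.58.1 under R 4.3.3 (trended prior spread, two-sided, Benjamini-Hochberg over all genes tested, threshold 0.05) on log2(RPKM + 1), a scale that understates changes of low genes, for the 9965 genes averaging 1 RPKM or more. The fit was tested on simulated data drawn with the same spread in both groups, which does not cover the unequal spread of these libraries. Paralog ratios were compared by exact permutation with scipy 1.17.1 in Python 3.11.15. Exon lengths were known for 24959 genes. All 10 genes are given. Of each list, any gene that passed was to be named, and otherwise the most abundant gene and those with the largest positive and largest negative log2 fold change, with Trim21 and Zp3. One result under this rule is not reported here. The 10 genes and the lists were chosen with earlier results of these data known. Alternatives were the columns as deposited, another pseudocount, other filters on low values, other scalings, removal of the length trend, a replicate block and leaving out each library.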

Additional observations from a re-analysis of the deposited data

How the results depend on the processing

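The number of genes passing depended on the processing far more than the fold changes of the 10 genes did. Of 9965 genes, 63 passed as reported, against 3707 of 9950 with the columns as deposited, 19 with a pseudocount of 0.1, 0 of 25731 with no filter (3323 at an unadjusted p under 0.05), 368 of 3459 with a mean of at least 10 RPKM, 12 with median ratio scaling (9 higher and 3 lower), 24 with quantile normalization (18 and 6), 19 with totals that exclude Trim21 reads, 36 of 9858 with the length trend removed (14 higher and 22 lower, against 59 and 4 as reported), 0 with a replicate block (1733 at an unadjusted p under 0.05) and 0 to 279 when libraries were left out in turn. Each count of 0 among the latter came without a ZP3 Trim-away library (1130 to 1268 at an unadjusted p under 0.05), and 279 came without control replicate 2. Same-numbered libraries did not deviate together (r = -0.061, 0.019 and -0.053), but so few libraries cannot settle whether the numbers pair them. The replicate block changed no call among the 10 (Zar1l limma adjusted p = 0.0594). Of the 10 genes, 0 passed as reported, 2 with the columns as deposited, 1 with a mean of at least 10 RPKM (which left out Zar1 and Ddx6), and 0 to 2 when libraries were left out.

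Of 148 alternative values of the 10 fold changes, 130 kept direction and call, 5 passed in addition and 13 changed sign. Those of Zar1, Zar1l, Lsm14a and Eif4e kept their sign throughout. The log2 fold change turned with the columns as deposited for Ddx6 (-0.074) and Eif4enif1 (0.043). For Eif4e1b it turned with median ratio scaling (-0.11), quantile normalization (-0.13), totals that exclude Trim21 reads (-0.032) and removal of the length trend (-0.25). Leaving out libraries gave ranges of 0.095 to 0.76 for Ddx6, -0.39 to 0.045 for Ybx2, -0.37 to 0.037 for Lsm14b, -0.056 to 0.067 for Eif4enif1, -0.60 to 0.0048 for Cpeb1 and -0.011 to 0.14 for Eif4e1b. The Lsm14b to Lsm14a ratio differed by 0.036 with the columns as deposited and by -0.28 to 0.27 without single libraries. The other 2 ratios kept their sign, with ranges of 0.13 to 0.74 (Zar1l to Zar1) and -0.48 to -0.21 (Eif4e1b to Eif4e). The causes were not tested. Zar1 and Ddx6, with 124 to 566 reads per library, allowed only coarse comparisons, and the spread of Ddx6 between controls exceeded counting error.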

Other observations

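Across all tested genes with an annotated mRNA end, transcripts with a cytoplasmic polyadenylation element in their last 100 bases, the element that CPEB1 binds, had a lower median log2 fold change than those without one, 0.12 over 1655 genes against 0.21 over 6468 genes. The share with a positive value was 60.0% with the element and 66.9% without it. Genes are not independent replicates, and no test of this difference was made. Genes with and without the element were not matched for exon length, with which fold changes also ran. The part of length in this difference was not tested. The 2 genes of the storage group with the element, Ybx2 (-0.12) and Lsm14a (-0.16), both lay below the median of all tested genes. So did 6 of the 10 genes of the storage group, with these 2 included. By definition, as many tested genes lie below that median as above it.

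Fold changes also ran with exon length. The median log2 fold change was 0.41 for genes under 1000 bases, 0.40 from 1000 to 2000, 0.29 from 2000 to 4000, 0.17 from 4000 to 6000 and 0.01 from 6000 bases up. Every ZP3 Trim-away library was above every control library in 24.6, 29.1, 23.6, 16.9 and 12.7% of these classes, from shortest to longest. The longest class holds Ddx6 (8035 bases of exon, log2 fold change 0.38), Eif4enif1 (6370 bases, -0.01), Lsm14a (6136 bases, -0.16) and Eif4e (6008 bases, 0.43), which lay on both sides of its median.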
